A study of Mus musculus with 18 samples.

Results

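A set of 10 genes that mark disease-associated microglia was followed through 18 libraries of mouse frontal cortex. They are the receptor gene Trem2 and its adaptor Tyrobp, the surface receptors Clec7a and Itgax, the apolipoprotein gene Apoe, the lipase gene Lpl, the protease inhibitor gene Cst7, the secreted phosphoprotein gene Spp1, the receptor kinase gene Axl and the tetraspanin gene Cd9. The 10 genes were taken by name out of 56953 gene features in the count tables, and all 10 were among the 37310 genes tested over the 18 libraries. The animals, of the strain B6;D2-Tg(S100B-EGFP)1Wjt/J, carry a green fluorescent reporter under S100B sequences, a marker of astrocytes. They received clozapine at 10 mg/kg, risperidone at 1 mg/kg or vehicle intraperitoneally once a day from postnatal day 60 to 74. The labels give this as 14 days of treatment, and the animals were killed on day 75. The frontal cortices of 5 animals made 1 pool, each treatment had 2 pools, and the labels number the pools batch 1 and batch 2. Each pool was split by immunopanning, in which cells bind to antibody-coated dishes, into a CD45 microglia fraction, a HepaCAM astrocyte fraction and a Thy1 neuron fraction, so that the 18 libraries form 9 groups of n = 2. Every animal carried the reporter and was injected. The labels give both sexes in 1 place and males in another, and Xist (127 to 564 CPM) and the Y-linked gene Ddx3y (24.7 to 96.9 CPM) were counted in all 18 libraries.

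Disease-associated microglia are a state that microglia enter around amyloid plaques, in demyelinated white matter and in ageing brain. In this state the genes of the resting, or homeostatic, programme such as P2ry12, Tmem119 and Cx3cr1 go down, and genes of phagocytosis, lysosomes and lipid handling go up. Trem2 binds lipids and lipoproteins, including those that carry Apoe, and signals through Tyrobp to the kinase Syk. Tyrobp and Apoe belong to an early step that does not need Trem2, whereas Cst7, Lpl, Itgax, Clec7a, Spp1, Axl and Cd9 belong to the fuller state. Clozapine and risperidone are antipsychotic drugs, and the comparisons ask how these genes stand in the 3 fractions, whether they change under either drug and how far the 2 batches agree.

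Between 4714468 and 13391163 counts were assigned to genes per library. Levels are given as CPM (counts-per-million of the library, scaled by the trimmed mean of M values), and differences as log2 differences with their standard error (SE) from edgeR's quasi-likelihood test, called where the Benjamini-Hochberg adjusted p over all genes tested was under 0.05. The labelled cell types were checked by summed CPM of marker lists. The 14 homeostatic microglia markers summed to 3322 to 7114 CPM in the microglia libraries, 337 to 790 CPM in the astrocyte libraries and 124 to 927 CPM in the neuron libraries. The 15 astrocyte markers summed to 1705 to 5394, 11730 to 25350 and 4687 to 12050 CPM in microglia, astrocyte and neuron libraries. The 15 oligodendrocyte markers were high in the astrocyte libraries, at 28380 to 44410 CPM in batch 1 and 7522 to 11500 CPM in batch 2, and stood at 7925 to 39220 CPM in the neuron libraries and 518 to 2937 CPM in the microglia libraries. The 15 neuron markers summed to 1639 to 7449 CPM in microglia, 2506 to 7175 CPM in astrocyte and 8100 to 22590 CPM in neuron libraries. In batch 1 of the neuron fraction they summed to 8100 to 16320 CPM, below the oligodendrocyte markers at 16840 to 39220 CPM. In batch 2 of that fraction they summed to 18770 to 22590 CPM, above the oligodendrocyte markers at 7925 to 9508 CPM. None of the homeostatic, astrocyte or oligodendrocyte markers was at 0 in any library. In such bulk fractions, fewer cells of a type and less RNA per cell cannot be told apart. The microglia vehicle library of batch 1 stood apart by its homeostatic markers (7114 CPM against 3322 to 4581 CPM in the other 5 microglia libraries). It was also the highest in border macrophage markers (563 CPM), genes that tissue handling induces (10070 CPM) and erythroid markers (13890 CPM). The other 5 reached at most 249.5, 5719 and 9378 CPM in these lists.

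Of the 10 genes, 7 were higher in the microglia than in the astrocyte fraction without any overlap of the libraries. These were Trem2, Tyrobp, Clec7a, Itgax, Cst7, Spp1 and Cd9. Of all 37310 genes, 5.6% had every microglia library above every astrocyte library and 3.91% had every microglia library below. Apoe and Axl were the members below, and Lpl overlapped. By edgeR 8 members were called higher in microglia than in astrocytes, where 6.18% of all genes were, and 2 were called lower, where 6.85% of all genes were. In the vehicle libraries alone, 2 per fraction, Trem2 and Tyrobp were the members called against astrocytes. Against the neuron fraction 7 members were called higher, beside 28.2% of all genes, and none lower, beside 18.8%. In that comparison 5 members had every microglia library above every neuron library, as did 10.5% of all genes. The median difference over all genes was 0.02 between microglia and astrocytes but 0.62 between microglia and neurons and 0.46 between astrocytes and neurons (0.81 and 0.58 with RLE scaling), so each difference from the neuron fraction is to be read against that shift.

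**Figure D1:**
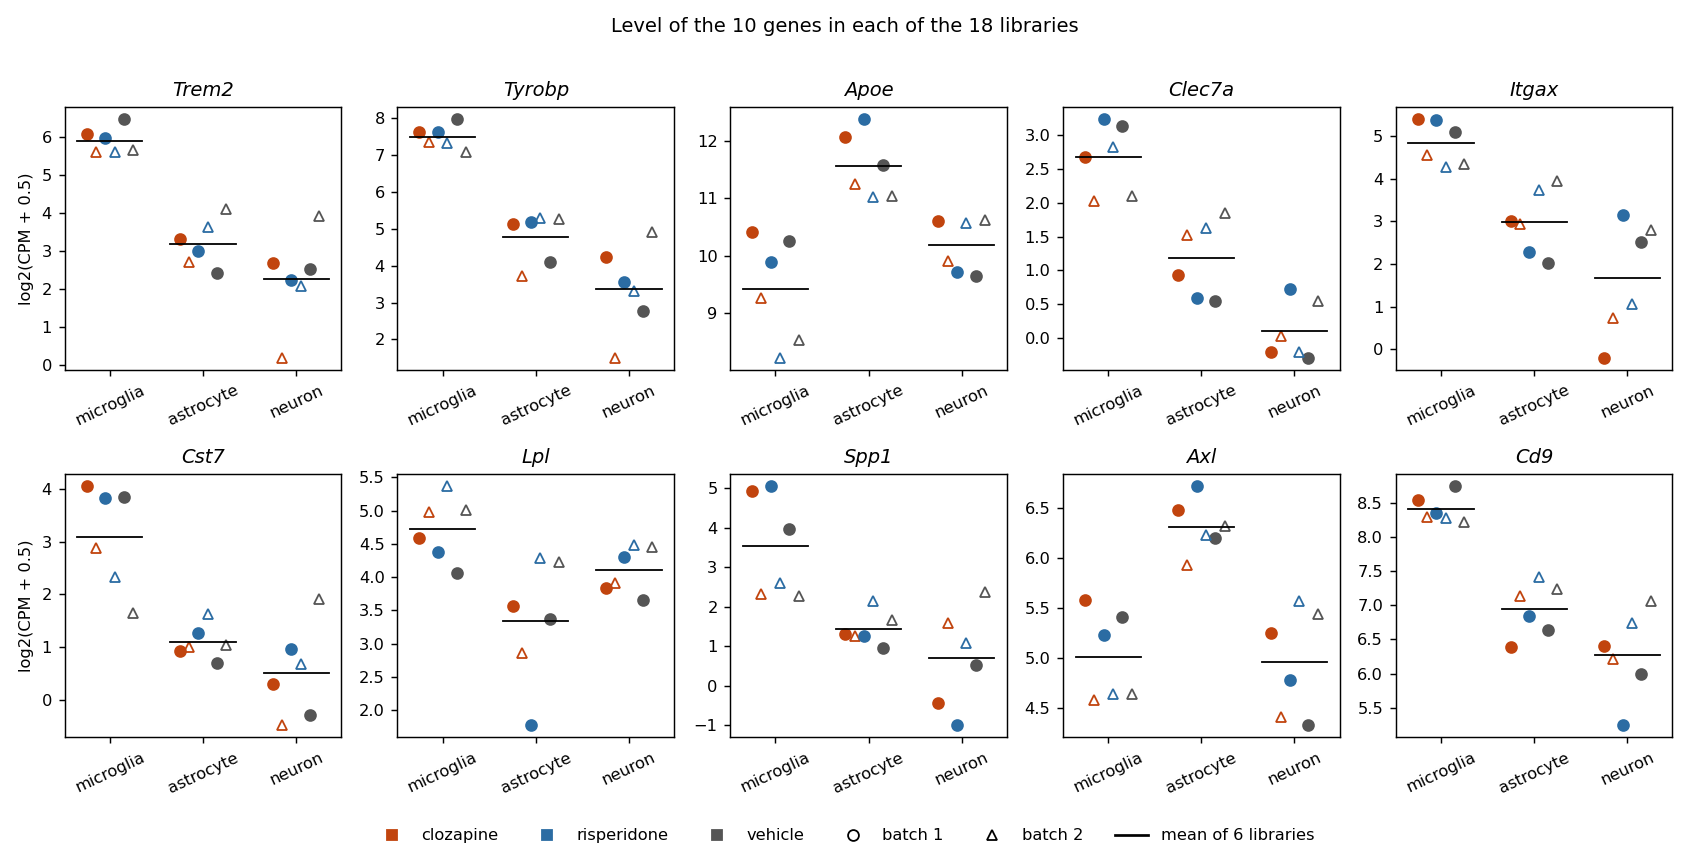
Level of each gene in each of the 18 libraries as log2(CPM + 0.5), by fraction from left to right. Colour gives the treatment, filled circles batch 1, open triangles batch 2 and the bar the mean of 6 libraries; Trem2 lay at 47.8 to 88.2 CPM in all 6 microglia libraries and at 0.632 to 16.6 CPM in the other 12.

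Trem2 (ENSMUSG00000023992.15, chr17:48653429-48661175, plus strand, GRCm39), the lipid-binding receptor, had a lowest, median and highest level of 47.8, 55.7 and 88.2 CPM in the microglia libraries. Its levels were 4.83, 8.45 and 16.6 CPM in the astrocyte libraries and 0.632, 4.71 and 14.6 CPM in the neuron libraries. All microglia libraries stood above all others, while astrocyte and neuron libraries overlapped. The difference was 2.70 ± 0.37 (adjusted p = 1.81e-05) from astrocytes and 3.58 ± 0.39 (adjusted p = 7.17e-07) from neurons. Tyrobp (ENSMUSG00000030579.11, chr7:30113185-30117010, plus strand), the adaptor through which Trem2 signals, had 134, 180 and 253 CPM in microglia, 12.6, 35.1 and 38.4 CPM in astrocytes and 2.32, 10.3 and 29.8 CPM in neurons. Its fractions were ordered like those of Trem2, and the lowest microglia library was above the highest astrocyte library. Tyrobp was higher in microglia by 2.68 ± 0.41 against astrocytes (adjusted p = 5.48e-05) and by 3.88 ± 0.43 against neurons (adjusted p = 9.89e-07). In the neuron fraction both genes were highest in the vehicle library of batch 2 (14.6 CPM for Trem2, 29.8 CPM for Tyrobp), the neuron library with the highest sum of homeostatic markers (927 CPM), and lowest in the clozapine library of batch 2 (0.632 and 2.32 CPM), where these markers summed to 128 CPM. The neuron library with the lowest sum, vehicle batch 1 (124 CPM), had 5.22 CPM of Trem2 and 6.32 CPM of Tyrobp.

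Clec7a (ENSMUSG00000079293.13, chr6:129438554-129449742, minus strand) encodes dectin-1, a receptor for beta-glucans that also signals through Syk. It was the lowest member per length in microglia, with a mean of 2.34 CPM per kb of merged exons. Its lowest, median and highest levels were 3.59, 6.23 and 8.95 CPM in microglia, 0.966, 1.89 and 3.10 CPM in astrocytes and 0.316, 0.448 and 1.16 CPM in neurons. As a yardstick for stray reads, 1433 olfactory and vomeronasal receptor genes, which cortex is not known for, averaged 0.277 to 0.580 CPM per kb in microglia libraries, 0.191 to 0.538 in astrocyte libraries and 0.0370 to 0.278 in neuron libraries. Clec7a per kb was 4.19 to 7.12 times this yardstick in microglia, 1.19 to 2.80 times in astrocytes and 0.534 to 5.40 times in neurons. Of the 12 libraries outside microglia, 1 was under the yardstick, the neuron vehicle library of batch 1 with 2 counts of Clec7a. Its difference was 1.66 ± 0.46 from astrocytes (adjusted p = 0.0165) and 3.29 ± 0.51 from neurons (adjusted p = 3.79e-05). The call against astrocytes was lost without the clozapine or the vehicle library of batch 1 of either fraction (adjusted p 0.0537 to 0.0799). Itgax (ENSMUSG00000030789.10, chr7:127728719-127749829, plus strand) encodes the integrin chain CD11c, which pairs with the Itgb2 chain. It had 18.7, 28.4 and 41.9 CPM in microglia, 3.54, 7.36 and 14.9 CPM in astrocytes and 0.366, 3.41 and 8.41 CPM in neurons. Its microglia libraries stood above all others, by 1.82 ± 0.38 against astrocytes (adjusted p = 0.00146) and 3.38 ± 0.42 against neurons (adjusted p = 3.40e-06). Per kb Itgax was 6.72 to 21.0 times the yardstick in microglia, 2.40 to 6.53 times in astrocytes and 1.20 to 15.6 times in neurons. Lpl was 3.39 to 10.7, 1.45 to 4.49 and 5.17 to 41.6 times the yardstick in these fractions. In neurons the lowest library was at 1.43 times for Cst7 and at 0 for Spp1.

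Cst7 (ENSMUSG00000068129.6, chr2:150412335-150420864, plus strand) encodes cystatin F, an inhibitor of lysosomal cathepsins. It had 2.64, 10.3 and 16.1 CPM in microglia, 1.13, 1.52 and 2.58 CPM in astrocytes and 0.211, 0.919 and 3.24 CPM in neurons. The lowest microglia library lay just above the highest astrocyte library and below the highest neuron library. The difference was 2.53 ± 0.51 from astrocytes (adjusted p = 0.000953) and 3.19 ± 0.53 from neurons (adjusted p = 7.15e-05). Spp1 (ENSMUSG00000029304.15, chr5:104582984-104588916, plus strand) encodes osteopontin, a secreted ligand of integrins and Cd44. Its levels were 4.32, 10.4 and 32.6 CPM in microglia, 1.45, 1.93 and 3.95 CPM in astrocytes and 0, 1.27 and 4.67 CPM in neurons, where the risperidone library of batch 1 had no read (a count of 0). Every microglia library was above every astrocyte library, and the highest neuron library was above the lowest microglia library. Spp1 exceeded astrocytes by 2.69 ± 0.60 (adjusted p = 0.00282) and neurons by 3.27 ± 0.63 (adjusted p = 0.000287). It shares 309 exon bases, 18.75% of its exons, with the predicted gene Gm42793 on the same strand, which had 129 counts over the 18 libraries. Cd9 (ENSMUSG00000030342.9, chr6:125437229-125471754, minus strand), a tetraspanin of cell surface and vesicles, had 298, 319 and 427 CPM in microglia, 83.0, 127 and 169 CPM in astrocytes and 37.4, 79.3 and 133 CPM in neurons. Every microglia library was above every other library, by 1.44 ± 0.29 against astrocytes (adjusted p = 0.00119) and 2.05 ± 0.30 against neurons (adjusted p = 2.01e-05). Cd9 shares 218 exon bases (10.67%) with the antisense gene Gm26728, which had 13407 counts over the 18 libraries, and without strand their reads cannot be told apart. The other 8 members share no exon bases with another gene.

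Lpl (ENSMUSG00000015568.17, chr8:69333143-69360100, plus strand) encodes lipoprotein lipase, which frees fatty acids from lipoproteins. It had 16.2, 27.3 and 40.8 CPM in microglia, 2.91, 10.6 and 19.0 CPM in astrocytes and 12.2, 16.8 and 21.8 CPM in neurons, and neighbouring fractions overlapped. Microglia were higher than astrocytes by 1.29 ± 0.33 (adjusted p = 0.00889). Against neurons the difference of 0.68 ± 0.32 did not pass (adjusted p = 0.0865), although Lpl was higher in the microglia library of all 6 pools. With the pool as a block it was 0.63 ± 0.25 (adjusted p = 0.0453), and it was called with RLE scaling (adjusted p = 0.0403) and DESeq2 (adjusted p = 0.0389). Lpl was higher in the neuron than in the astrocyte library of all 6 pools, a difference of -0.61 ± 0.33 for astrocytes over neurons that did not pass (adjusted p = 0.167) but was called without the astrocyte library of risperidone batch 2 (-1.16, adjusted p = 0.0152).

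Apoe (ENSMUSG00000002985.17, chr7:19430034-19433113, minus strand), the main lipid carrier of brain and known as an astrocyte product, had 296, 780 and 1362 CPM in the microglia libraries. In the astrocyte libraries it had 2086, 2758 and 5362 CPM and in the neuron libraries 803, 1243 and 1584 CPM. Every astrocyte library was above every library of the other fractions. Apoe was lower in microglia than in astrocytes by -2.02 ± 0.45 (adjusted p = 0.00274), and the difference between microglia and neurons did not pass (-0.62 ± 0.44, adjusted p = 0.239). Axl (ENSMUSG00000002602.17, chr7:25456698-25488130, minus strand), a receptor kinase that binds Gas6 and serves the uptake of dying cells, was also highest in astrocytes, and its microglia and neuron libraries overlapped. It had 23.4, 30.8 and 47.5 CPM in microglia, 60.8, 77.1 and 105 CPM in astrocytes and 19.6, 32.3 and 47.0 CPM in neurons. Axl differed by -1.28 ± 0.27 between microglia and astrocytes (adjusted p = 0.00154) and by 0.03 ± 0.27 between microglia and neurons (adjusted p = 0.939). Per length Apoe was the highest member in microglia, at a mean of 374 CPM per kb, ahead of Tyrobp (276 CPM per kb) and Cd9 (167 CPM per kb). Trem2, Cst7 and Spp1 followed with means of 12.2, 9.76 and 9.28 CPM per kb, and Axl, Itgax and Lpl with 6.59, 6.19 and 2.60 CPM per kb.

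Between astrocytes and neurons 5 members were called higher in astrocytes, beside 14.6% of all genes, and none lower, beside 9.17%. Apoe differed by 1.40 ± 0.44 (adjusted p = 0.0286) and Axl by 1.31 ± 0.27 (adjusted p = 0.00409). These were also the members with every astrocyte library above every neuron library, as were 2.59% of all genes. Clec7a (1.63 ± 0.51, adjusted p = 0.0274), Itgax (1.56 ± 0.42, adjusted p = 0.0131) and Tyrobp (1.20 ± 0.40, adjusted p = 0.0343) passed with overlapping libraries, where the homeostatic markers, 4 of 14 called higher, had a median difference of 0.81. The call of Apoe was lost without the astrocyte library of clozapine batch 1 (adjusted p = 0.0749) or the neuron library of clozapine batch 2 (adjusted p = 0.0990), and that of Itgax without the astrocyte library of vehicle batch 2 (adjusted p = 0.0670). That of Tyrobp was lost without the astrocyte libraries of clozapine batch 1 or vehicle batch 2 or the neuron libraries of clozapine or risperidone batch 2 (adjusted p 0.0682 to 0.105). That of Clec7a was lost without any 1 astrocyte library of batch 2 or without the neuron libraries of clozapine or risperidone batch 2 (adjusted p 0.0553 to 0.121). Trem2 (0.88 ± 0.37, adjusted p = 0.0835), Cd9 (0.61 ± 0.29, adjusted p = 0.121), Cst7 (0.66 ± 0.54, adjusted p = 0.363) and Spp1 (0.58 ± 0.64, adjusted p = 0.505) did not pass. DESeq2 called Trem2 (1.03, adjusted p = 0.0418) and Cd9 (0.75, adjusted p = 0.0266), and edgeR without the low-count filter called Trem2 (0.93, adjusted p = 0.00532). Trem2 was called without 1 of 4 libraries, by up to 1.69 (adjusted p = 0.00525) without the neuron library of clozapine batch 1, and Cd9 without the neuron library of risperidone batch 2 (0.95, adjusted p = 0.0423).

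**Figure D2:**
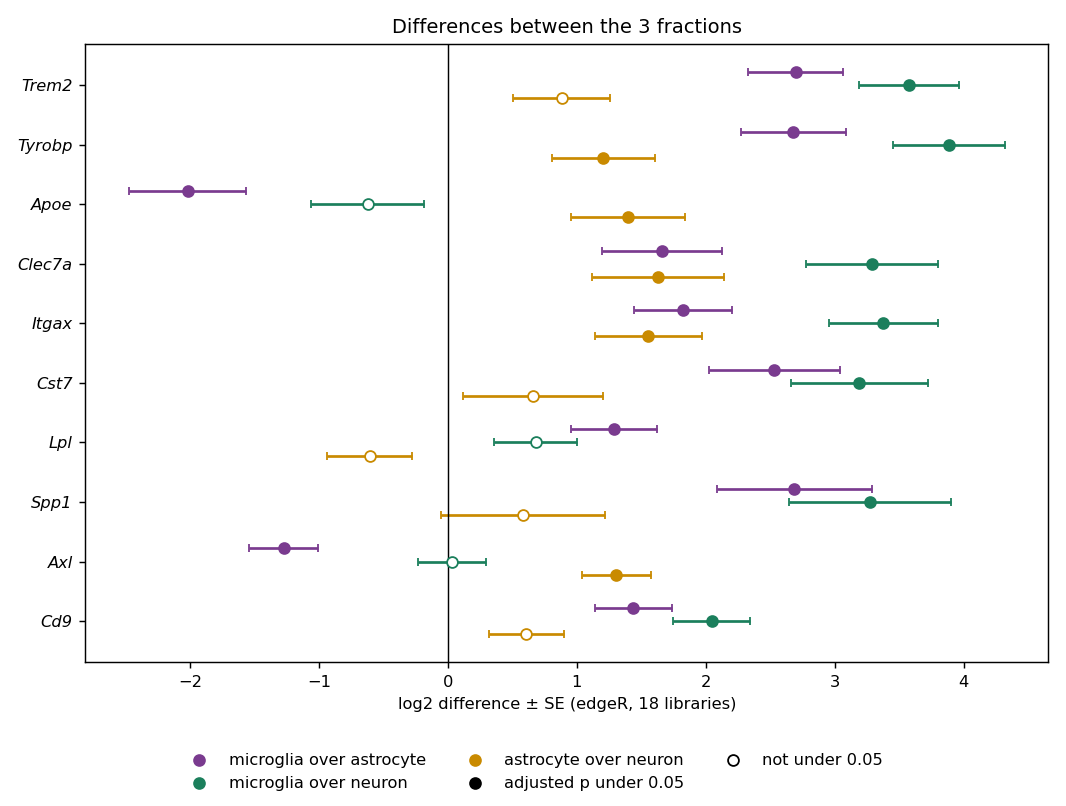
Log2 difference between fractions with its SE for each gene, edgeR over 18 libraries, filled where the adjusted p was under 0.05. Against astrocytes the differences of Trem2, Tyrobp, Spp1 and Cst7 lie between 2.53 and 2.70, whereas Apoe (-2.02) and Axl (-1.28) lie below 0.

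The members were set against the homeostatic markers of each library as reads per 1000 reads of these 14 genes. Such markers go down in the disease-associated state, so the ratio does not measure microglial content alone. Trem2 stood at 11.3 to 15.2 per 1000 in microglia, 13.9 to 21.0 in astrocytes and 4.93 to 42.2 in neurons, and Tyrobp at 35.5 to 48.6, 37.5 to 68.2 and 18.1 to 63.5. These ranges overlapped in all 3 fractions. Apoe stood at 82.0 to 297 per 1000 in microglia, 2656 to 10210 in astrocytes and 1709 to 7483 in neurons, and Axl at 5.52 to 10.4, 100.5 to 211 and 46.5 to 163. For these members the lowest ratio outside microglia was above the highest microglia ratio. The same held for Cd9, with 60.1 to 89.8 in microglia, 163 to 415 in astrocytes and 144 to 578 in neurons. In Lpl the neuron ratios of 23.0 to 113 lay above the 2.28 to 11.3 of microglia, and the astrocyte ratios of 5.54 to 30.4 overlapped with both. Spp1 stood at 1.07 to 8.06 in microglia, 3.38 to 6.33 in astrocytes and 0 to 19.7 in neurons. Microglial markers in the other fractions were measured, but their part in the levels there was not tested.

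**Figure D3:**
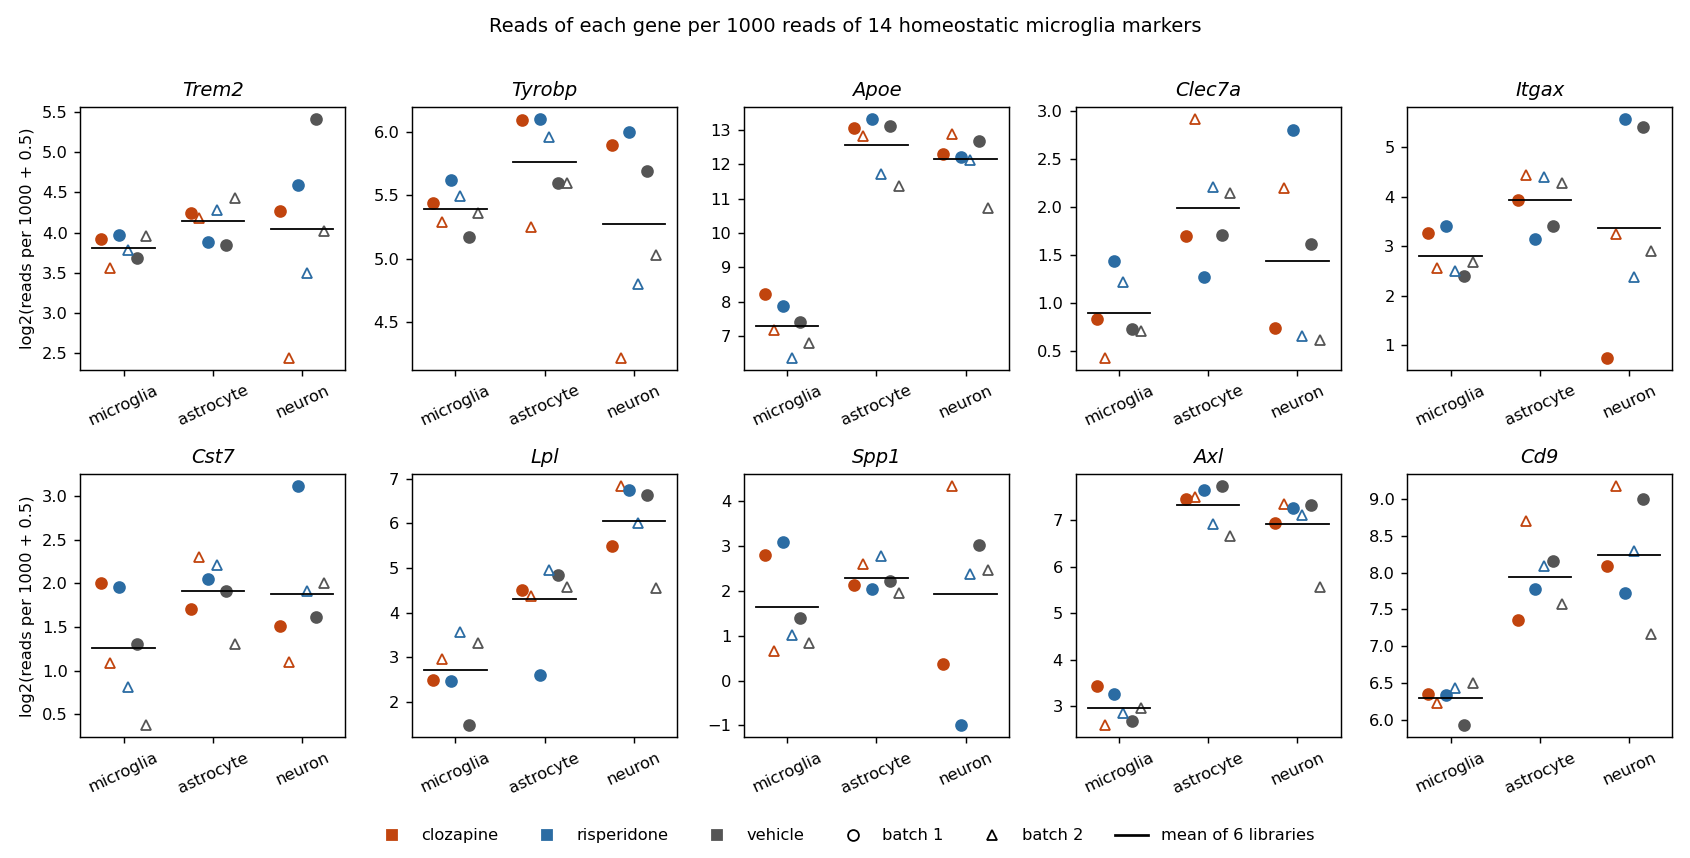
Reads of each gene per 1000 reads of 14 homeostatic microglia markers, on a log2(value + 0.5) axis, in each of the 18 libraries. The ranges of Trem2 and Tyrobp overlap in the 3 fractions (11.3 to 15.2, 13.9 to 21.0 and 4.93 to 42.2 for Trem2), and Apoe and Axl are higher outside microglia.

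Partners of the members were read from a list of 31 genes: the kinases and adaptors below Trem2 and Clec7a, the ligands and relatives of Axl, integrin chains, Apoe receptors, cathepsins controlled by cystatin F and factors of lipase export. Against astrocytes 15 of the 31 were higher in microglia, beside 6.18% of all genes, 3 were lower, beside 6.85%, and 13 did not pass. Their median difference was 0.75 beside 0.02 for all genes. Itgb2, the integrin chain that pairs with Itgax, was higher by 3.53 ± 0.46, Lyn, a Src-family kinase that phosphorylates such adaptors, by 3.41 ± 0.52, and Ctsc, the cathepsin that cystatin F inhibits, by 3.23 ± 0.40 (adjusted p = 1.12e-05, 5.70e-05 and 7.29e-06). Itgb2 averaged 177 ± 23.6 CPM in microglia, 16.8 ± 13.0 CPM in astrocytes and 12.3 ± 15.2 CPM in neurons (SD, n = 6 each). Among the 3 lower partners were Clu (-2.18 ± 0.36, adjusted p = 0.000129), an apolipoprotein, and Tyro3 (-0.95 ± 0.29, adjusted p = 0.0299), the receptor kinase related to Axl. Clu averaged 178 ± 65.0 CPM in microglia, 812 ± 271 CPM in astrocytes and 374 ± 190 CPM in neurons (SD, n = 6 each). Against neurons 21 partners were higher, beside 28.2% of all genes, and 2, Tyro3 and Clu, lower, beside 18.8%. Between astrocytes and neurons 7 were higher, among them Mertk (1.23 ± 0.27, adjusted p = 0.00494), the third receptor kinase of the Axl family, and 1, Tyro3, lower (-0.82 ± 0.29, adjusted p = 0.0434). The shares of all genes there were 14.6% higher and 9.17% lower.

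Of 28 further genes of the disease-associated state, 20 were higher in microglia than in astrocytes, beside 6.18% of all genes, and 2 lower, beside 6.85%. The chemokines Ccl3 and Ccl4 and the maturation marker Cd83 led with differences of 4.57 ± 0.83, 4.54 ± 0.96 and 4.29 ± 0.70 (adjusted p = 0.000324, 0.00161 and 0.000113). Ccl4 averaged 3052 ± 865 CPM in microglia, 188 ± 249 CPM in astrocytes and 192 ± 347 CPM in neurons (SD, n = 6 each). The lower genes were Fabp5, a fatty acid carrier (-1.61 ± 0.28, adjusted p = 0.000227), and Ank, a transporter linked to pyrophosphate (-0.85 ± 0.26, adjusted p = 0.0332). Against neurons 22 were higher, beside 28.2% of all genes, and 2 lower, beside 18.8%. Between astrocytes and neurons 6 were higher, among them Lgals3, a galectin (2.13 ± 0.75, adjusted p = 0.0434), and 2 lower, Timp2 and Ank. The shares of all genes there were 14.6% and 9.17%. Immediate-early and stress genes that tissue handling induces moved with these lists: 12 of 16 were higher in microglia than in astrocytes, with summed levels of 3553 to 10070 CPM in microglia, 1255 to 3238 CPM in astrocytes and 1055 to 2835 CPM in neurons. Their part in the levels of the members and of these further genes, Ccl3, Ccl4 and Cd83 included, was not tested.

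Within the microglia fraction 6 of the 10 members differed between the batches. Spp1, Cst7, Apoe, Itgax and Axl rose in batch 1, 5 members beside 1.41% of all 32846 genes tested, and Lpl fell, beside 2.85%. Spp1 had 29.6, 32.6 and 15.2 CPM in the batch 1 libraries (clozapine, risperidone, vehicle) against 4.54, 5.55 and 4.32 CPM in those of batch 2. Every batch 1 library was above every batch 2 library, and the difference was 2.34 ± 0.28 (adjusted p = 2.75e-05). Cst7 had 16.1, 13.6 and 14.0 CPM in batch 1 and 6.86, 4.51 and 2.64 CPM in batch 2 in the same order of treatments, a difference of 1.69 ± 0.31 (adjusted p = 0.00153). Apoe had 1362, 946 and 1215 CPM in batch 1 and 614, 296 and 367 CPM in batch 2, a difference of 1.49 ± 0.19 (adjusted p = 4.38e-05). In all 3 genes the batches did not overlap and each treatment was higher in batch 1.

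Itgax had 41.9, 41.2 and 33.8 CPM in batch 1 and 23.0, 18.7 and 19.8 CPM in batch 2 (0.90 ± 0.22, adjusted p = 0.0150). Axl had 47.5, 37.1 and 42.0 CPM in batch 1 and 23.4, 24.5 and 24.5 CPM in batch 2 (0.77 ± 0.21, adjusted p = 0.0348). Lpl ran the other way, with 23.5, 20.2 and 16.2 CPM in batch 1 and 31.0, 40.8 and 31.7 CPM in batch 2 (-0.82 ± 0.22, adjusted p = 0.0353). The receptor pair did not pass: Trem2 had 66.9, 61.4 and 88.2 CPM in batch 1 and 47.8, 48.0 and 50.0 CPM in batch 2 (0.53 ± 0.20, adjusted p = 0.160). Tyrobp had 196, 196 and 253 CPM in batch 1 and 164, 161 and 134 CPM in batch 2 (0.46 ± 0.19, adjusted p = 0.235). Cd9 (0.25 ± 0.18, adjusted p = 0.610) and Clec7a (0.73 ± 0.34, adjusted p = 0.310) did not pass either. By level alone 8 members, all except Clec7a and Lpl, had every batch 1 library above every batch 2 library, as had 8.49% of all genes, and Lpl had every one below, as had 5.97%.

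**Figure D4:**
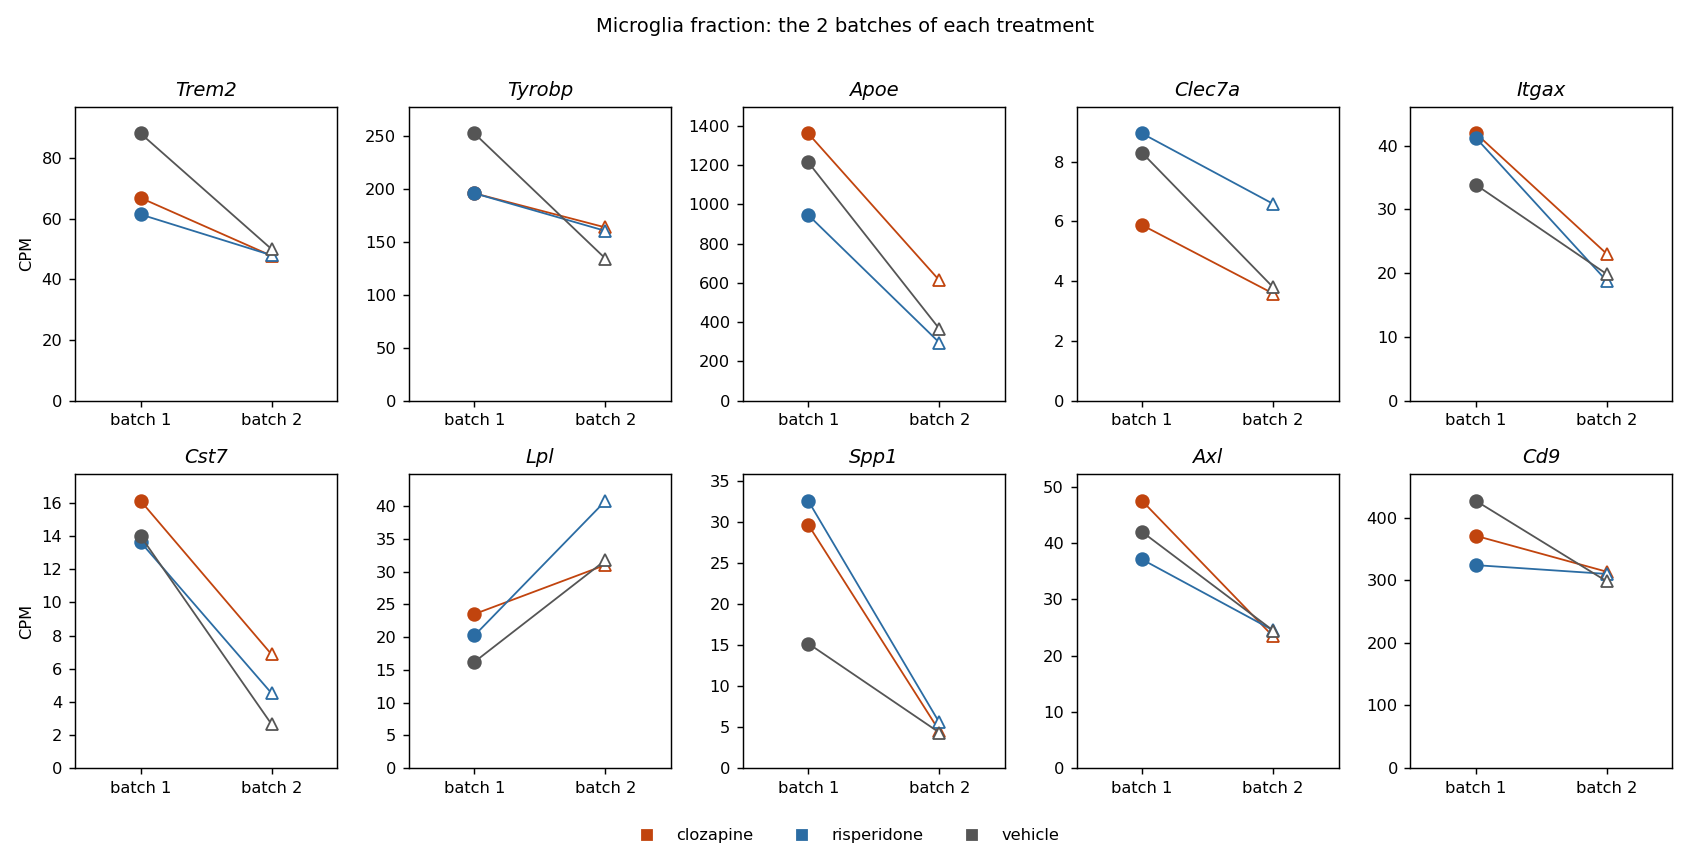
Level of each gene in CPM in the 6 microglia libraries, batch 1 at the left and batch 2 at the right, with lines joining the libraries of 1 treatment. Spp1 lies at 15.2 to 32.6 CPM in batch 1 and 4.32 to 5.55 CPM in batch 2, and Lpl alone is lower in batch 1 in every treatment.

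The calls of Spp1, Cst7 and Apoe were kept without each single microglia library, while that of Itgax was lost without any 1 clozapine or risperidone library (adjusted p 0.0647 to 0.0909), that of Axl without any 1 clozapine or vehicle library (adjusted p 0.0666 to 0.336) and that of Lpl without any 1 risperidone or vehicle library (adjusted p 0.0670 to 0.2201). Without the vehicle library of batch 1, Spp1 differed by 2.56, Apoe by 1.35, Cst7 by 1.35 and Itgax by 0.94 and were called, and Axl (adjusted p = 0.0666) and Lpl (adjusted p = 0.0670) were not. In a fit of all 18 libraries the calls of Spp1 and Apoe remained, and those of Cst7 (1.73, adjusted p = 0.0797), Axl (0.80, adjusted p = 0.169), Itgax (0.92, adjusted p = 0.276) and Lpl (-0.79, adjusted p = 0.366) were lost. Batches are separate pools of animals, so that batch and animals cannot be told apart. Other lists moved with the batch in the microglia fraction. The 5 erythroid markers, all called higher, summed to 5126 to 13890 CPM in batch 1 and 1059 to 4638 CPM in batch 2. The 10 markers of border macrophages, which CD45 also captures, summed to 191 to 563 CPM in batch 1 and 117 to 175 CPM in batch 2, with 5 of 10 called higher. The astrocyte markers, 10 of 15 called higher, summed to 3111 to 5394 CPM in batch 1 and 1705 to 3066 CPM in batch 2, and the neuron markers, 13 of 15 called lower, to 1639 to 2460 CPM and 2822 to 7449 CPM. The handling genes summed to 5162 to 10070 CPM in batch 1 and 3553 to 4398 CPM in batch 2, with 2 of 16 called higher. In the erythroid, border macrophage and handling sums the vehicle library of batch 1 was the highest. The part of all these lists in the members' differences was not tested.

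The homeostatic markers themselves had 14 of 14 values above 0 in batch 1 microglia and none that passed, with a median of 0.47 beside 0.05 for all genes. Per 1000 reads of these markers, Spp1 stood at 6.47, 8.06 and 2.13 in batch 1 and 1.07, 1.54 and 1.30 in batch 2, Cst7 at 3.52, 3.38 and 1.97 and at 1.62, 1.25 and 0.793, and Apoe at 297, 234 and 171 and at 145, 82.0 and 110 (clozapine, risperidone, vehicle in each batch). On this scale too the batches of these 3 genes did not overlap, and Lpl was lower in every batch 1 library. The ratios of Trem2 were 14.6, 15.2 and 12.4 in batch 1 and 11.3, 13.3 and 15.0 in batch 2, and they overlapped, as did those of Tyrobp, Itgax, Cd9, Axl and Clec7a. Of the partners, Ctsc (1.04 ± 0.23, adjusted p = 0.00773) and Clu (0.73 ± 0.21, adjusted p = 0.0476) rose in batch 1, and Cd44, a receptor of osteopontin (-1.07 ± 0.20, adjusted p = 0.00132), and Tyro3 (-0.94 ± 0.19, adjusted p = 0.00444) fell. The other 27 did not pass, and of all genes 1.41% were called higher and 2.85% lower. Of the 28 further genes of the state, Lyz2, lysozyme (1.68 ± 0.33, adjusted p = 0.00280), Ftl1, ferritin light chain (1.02 ± 0.19, adjusted p = 0.00153), and Ctsz, a cathepsin (0.67 ± 0.19, adjusted p = 0.0453), rose, and the other 25 did not pass.

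In the astrocyte fraction no member was called between batches, where 3.56% of 31022 genes were called higher in batch 1 and 2.08% lower. Apoe averaged 4243 ± 1141 CPM in batch 1 and 2208 ± 199 CPM in batch 2 (SD, n = 3 each), a difference of 0.88 ± 0.39 (adjusted p = 0.177), and was called by DESeq2 (adjusted p = 0.00436), as was Cd9 (adjusted p = 0.0392). Itgax averaged 5.16 ± 2.13 and 11.7 ± 4.03 CPM in the same batches (-1.19 ± 0.38, adjusted p = 0.0527) and Cd9 99.0 ± 15.9 and 153 ± 15.0 CPM (-0.66 ± 0.27, adjusted p = 0.133). The 15 astrocyte markers had summed levels of 16090 to 25350 CPM in batch 1 and 11730 to 12810 CPM in batch 2 of this fraction. With 1 clozapine library left out, Apoe was higher in batch 1 by 0.95, and Itgax (-1.81), Lpl (-1.75 or -1.74) and Trem2 (-1.20) were lower. Leaving out either clozapine library gives nearly the same fit, which rests on the other 2 treatments. Of the partners, 5 were lower in batch 1 astrocytes, among them Cd44 (-2.45 ± 0.35, adjusted p = 1.29e-05) and the kinases Syk (-2.13 ± 0.30, adjusted p = 7.59e-06) and Lyn (-1.49 ± 0.33, adjusted p = 0.00316), and none of the 30 tested was higher. Of the 28 further genes, 7 were lower, among them Lilrb4a, an inhibitory receptor (-3.86 ± 0.51, adjusted p = 2.78e-06), and 1 was higher, Fth1, ferritin heavy chain (2.00 ± 0.45, adjusted p = 0.00419). The handling genes, 11 of 16 called lower in batch 1, summed to 1255 to 1640 CPM there and to 2304 to 3238 CPM in batch 2, and the border macrophage markers, 3 of 10 called lower, to 32.9 to 40.9 CPM and 68.5 to 94.1 CPM in the same batches. Of these, 1 marker was at 0 in the vehicle library of batch 1. The olfactory and vomeronasal receptor genes averaged 0.241, 0.191 and 0.308 CPM per kb in batch 1 and 0.322, 0.525 and 0.538 CPM per kb in batch 2 (clozapine, risperidone, vehicle), lower in batch 1 in each treatment, the direction of Itgax and Cd9. Over the astrocyte libraries Itgax per kb was 2.40 to 6.53 times these receptor genes, and Cd9 137 to 294 times. The part of the marker, handling and receptor genes in the members' differences was not tested. In the neuron fraction, where 9 members were tested and Clec7a was too low, none was called, beside 0.196% of 25510 genes higher and 0.137% lower. Spp1 had 0.244, 0 and 0.948 CPM in batch 1 and 2.53, 1.60 and 4.67 CPM in batch 2 (-3.05 ± 0.92, adjusted p = 0.0973). Without 1 of the clozapine neuron libraries Axl (-0.84 or -0.85) and Cd9 (-1.17 or -1.18) were called, and without the one of batch 1 also Spp1 (adjusted p = 0.0365). Without the vehicle library of batch 1 Tyrobp was called (1.69, adjusted p = 0.0154).

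Whether the batch difference itself differed between fractions was tested over all 18 libraries. The Spp1 difference was larger in microglia than in astrocytes by 2.99 ± 0.58 (adjusted p = 0.00383) and larger than in neurons by 5.37 ± 0.68 (adjusted p = 0.000403). Itgax differed from astrocytes by 2.08 ± 0.54 (adjusted p = 0.0228), which did not pass with the pool as a block (1.98 ± 0.66, adjusted p = 0.0842) or without any single risperidone or vehicle astrocyte library (adjusted p 0.0666 to 0.0899). The other members did not pass in either test, and Apoe differed from neurons by 1.91 ± 0.47 (adjusted p = 0.0553). With 1 clozapine neuron library left out, the gap to neurons was 2.41 for Apoe, 1.73 for Axl, 1.54 for Cd9, 2.9 for Cst7 and 1.43 for Tyrobp. With 1 clozapine astrocyte library left out, the gap to astrocytes was 1.63 for Trem2. Either library of the pair gives nearly the same values. In the tests over all 18 libraries 4.84% of all genes were called between microglia and astrocytes and 0.638% between microglia and neurons. The median of all genes was 0.34 and -0.20 (0.49 and -0.25 with RLE scaling).

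Promoter sequence is shown for the 5 members called higher in batch 1 microglia, a set picked by those calls. The calls of Itgax and Axl were lost without some single libraries. RefSeq windows of the 250 bases before a transcription start, on GRCm38.p6, which is not the build of the counts, were found for 8 of the 10 members (12 windows), and for Tyrobp and Lpl none was used here. Shown are all 8 windows of those 5 genes, 5′ to 3′ on the gene's strand, with capitals marking each GAGGAA, the core bound by the macrophage factor PU.1, or its reverse complement.
Spp1 (chr5:104434861-104435110, plus strand): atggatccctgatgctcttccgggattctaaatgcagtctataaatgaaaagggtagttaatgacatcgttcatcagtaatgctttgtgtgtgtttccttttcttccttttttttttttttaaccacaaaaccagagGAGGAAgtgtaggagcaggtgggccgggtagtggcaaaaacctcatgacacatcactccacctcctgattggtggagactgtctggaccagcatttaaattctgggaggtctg
Spp1 (chr5:104435942-104436191, plus strand): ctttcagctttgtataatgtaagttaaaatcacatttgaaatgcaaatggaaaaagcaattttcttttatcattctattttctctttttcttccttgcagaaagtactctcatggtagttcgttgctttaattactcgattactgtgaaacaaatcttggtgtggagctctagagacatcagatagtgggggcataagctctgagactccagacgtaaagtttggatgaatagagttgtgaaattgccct
Cst7 (chr2:150570165-150570414, plus strand): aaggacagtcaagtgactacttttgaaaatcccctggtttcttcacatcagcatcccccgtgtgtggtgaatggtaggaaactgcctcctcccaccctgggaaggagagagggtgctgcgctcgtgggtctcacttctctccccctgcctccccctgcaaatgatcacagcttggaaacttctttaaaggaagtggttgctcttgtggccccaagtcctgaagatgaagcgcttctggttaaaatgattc
Apoe (chr7:19699189-19699438, minus strand): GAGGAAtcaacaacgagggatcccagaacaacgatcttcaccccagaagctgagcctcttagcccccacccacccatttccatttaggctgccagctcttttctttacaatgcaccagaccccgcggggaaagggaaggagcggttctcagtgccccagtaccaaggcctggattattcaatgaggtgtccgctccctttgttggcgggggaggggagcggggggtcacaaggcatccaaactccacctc
Apoe (chr7:19698622-19698871, minus strand): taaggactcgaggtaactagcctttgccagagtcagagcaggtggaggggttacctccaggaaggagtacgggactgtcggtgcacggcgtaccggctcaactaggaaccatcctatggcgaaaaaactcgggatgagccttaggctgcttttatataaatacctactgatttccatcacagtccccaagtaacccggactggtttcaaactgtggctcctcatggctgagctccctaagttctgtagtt
Apoe (chr7:19698399-19698648, minus strand): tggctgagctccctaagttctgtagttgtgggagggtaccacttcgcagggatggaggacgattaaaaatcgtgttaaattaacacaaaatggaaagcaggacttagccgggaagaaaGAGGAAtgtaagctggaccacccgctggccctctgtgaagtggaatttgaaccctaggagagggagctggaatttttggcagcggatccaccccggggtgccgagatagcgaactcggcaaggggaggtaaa
Itgax (chr7:128129300-128129549, plus strand): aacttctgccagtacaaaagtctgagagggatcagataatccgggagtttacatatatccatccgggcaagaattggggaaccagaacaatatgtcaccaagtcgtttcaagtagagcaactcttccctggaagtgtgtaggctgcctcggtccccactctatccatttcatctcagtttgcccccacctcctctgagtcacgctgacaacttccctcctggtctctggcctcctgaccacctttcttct
Axl (chr7:25788734-25788983, minus strand): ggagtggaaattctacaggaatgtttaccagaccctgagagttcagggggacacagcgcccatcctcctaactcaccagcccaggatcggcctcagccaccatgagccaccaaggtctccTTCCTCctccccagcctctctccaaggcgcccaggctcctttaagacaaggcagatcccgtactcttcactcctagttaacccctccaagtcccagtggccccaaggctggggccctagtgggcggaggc
Of these 8, 4 hold the motif: 1 of the 2 windows of Spp1, 2 of the 3 of Apoe and the single window of Axl, while those of Cst7 and Itgax do not. GAGGAA on either strand was found in 7 of the 12 members' windows, of the genes Trem2, Apoe, Spp1, Axl and Clec7a, and in 23.3% of 32851 windows of all genes. Both windows of Clec7a overlap, and so do 2 of those of Apoe. TGANTCA, the AP-1 motif, was found in windows of Trem2 and Itgax and in 6.75% of all windows. CACGTG, an E-box, was found in none of the members' windows and in 6.02% of all. A match describes these letters and is no evidence of binding.

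No member was called for either drug in any fraction. In the microglia fraction no gene at all was called for clozapine against vehicle, risperidone against vehicle or clozapine against risperidone, 0.0% of 32846 genes in each. At an unadjusted p under 0.05, edgeR had 1041, 1407 and 2426 genes in these comparisons and DESeq2 called 1, 0 and 1 gene. If no gene differed, a share of 0.05 of the genes tested would pass that unadjusted cutoff, so such counts are to be read against this share. With the batch as a block, 5, 0 and 2 genes were called, none of them a member. The doses of the drugs differ, so their direct comparison is of these treatments as given. In the astrocyte and neuron fractions no gene was called either (0.0% of 31022 and of 25510 genes), with 388, 199 and 330 genes and 716, 204 and 831 genes at an unadjusted p under 0.05. There DESeq2 called none in astrocytes and 20, 7 and 0 in neurons, and the block gave 4, 4 and 10 genes in astrocytes and 1, 1 and 0 in neurons, in the same order of comparisons.

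In microglia the members' differences ran from -0.40 to 0.76 for clozapine and from -0.27 to 1.04 for risperidone, with SE of 0.31 to 0.86 in the fit without a batch term. Spp1 had 29.6 and 4.54 CPM with clozapine, 32.6 and 5.55 CPM with risperidone and 15.2 and 4.32 CPM with vehicle, batch 1 and batch 2 in each. Each batch 1 library, vehicle included, was above every batch 2 library. Its difference from vehicle was 0.76 ± 0.86 for clozapine (adjusted p = 1.0) and 1.04 ± 0.86 for risperidone (adjusted p = 0.928), and with the batch as a block 0.51 ± 0.34 (adjusted p = 0.902) and 0.83 ± 0.34 (adjusted p = 0.572). Within batches it was 0.96 and 0.07 for clozapine and 1.10 and 0.36 for risperidone. Trem2 had 66.9 and 47.8 CPM with clozapine, 61.4 and 48.0 CPM with risperidone and 88.2 and 50.0 CPM with vehicle. Its differences of -0.32 ± 0.35 and -0.27 ± 0.35 were within the spread of the libraries (adjusted p = 1.0 and 0.941). Clec7a had 5.88 and 3.59 CPM with clozapine, 8.95 and 6.59 CPM with risperidone and 8.30 and 3.80 CPM with vehicle, and differed by -0.83 ± 0.48 between clozapine and risperidone (adjusted p = 0.687). Apoe had 1362 and 614 CPM with clozapine, 946 and 296 CPM with risperidone and 1215 and 367 CPM with vehicle (0.27 ± 0.60 and -0.27 ± 0.60, adjusted p = 1.0 and 0.968). With the batch as a block Apoe differed from vehicle by 0.40 ± 0.23 and -0.28 ± 0.23 (adjusted p = 0.8955 and 0.766). Between clozapine and risperidone it then differed by 0.68 ± 0.23 (adjusted p = 0.256). The sign was the same in both batches for 6 members with clozapine and 5 with risperidone. In these comparisons the medians of the handling genes were -0.59 for clozapine and -0.79 for risperidone and those of the border macrophage markers -0.51 and -1.19, with none called. Every vehicle comparison holds the batch 1 vehicle library that stood apart, and both drugs share the vehicle libraries.

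**Figure D5:**
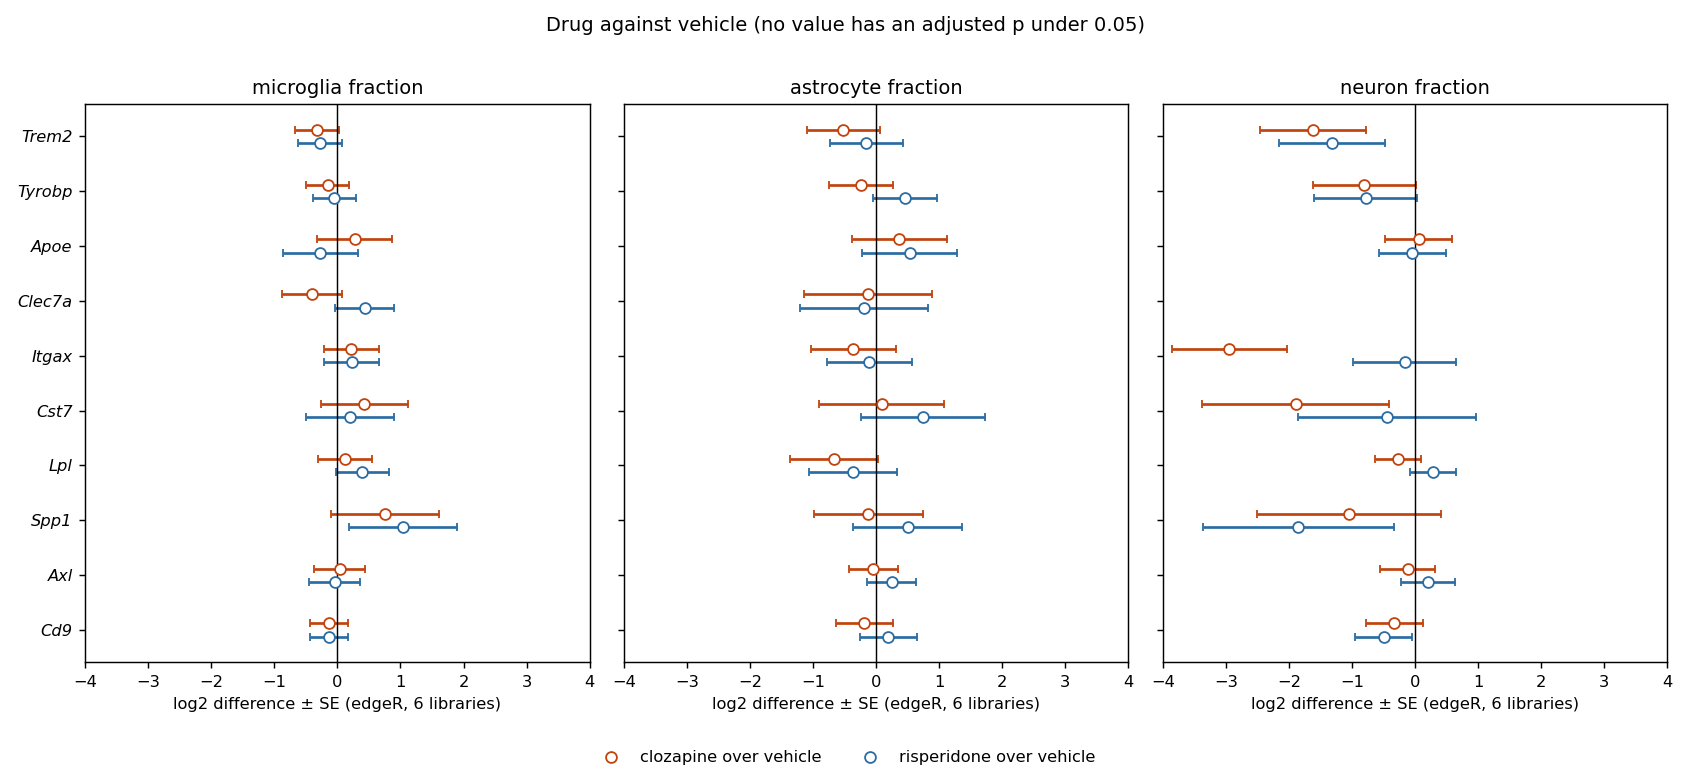
Log2 difference of clozapine and risperidone from vehicle with its SE for each gene in the 3 fractions, edgeR with 6 libraries per fraction. All symbols are open because none had an adjusted p under 0.05, and the bars are widest in neurons, where Itgax with clozapine lies at -2.95; Clec7a was not tested there.

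In astrocytes the members' differences lay between -0.67 and 0.36 for clozapine and between -0.37 and 0.74 for risperidone. In neurons they lay between -2.95 and 0.05 and between -1.86 and 0.28. The lowest was Itgax in neurons, with counts of 3 and 11 (0.366 and 1.16 CPM) with clozapine, 58 and 13 (8.41 and 1.60 CPM) with risperidone and 33 and 54 (5.22 and 6.47 CPM) with vehicle. Per kb Itgax was 1.20 and 6.52 times the receptor yardstick with clozapine and 4.84 and 15.6 times with vehicle. Both clozapine libraries were below both vehicle libraries, and the difference was -2.95 ± 0.92 (unadjusted p = 0.00808, adjusted p = 1.0). Trem2 in neurons had 5.85 and 0.632 CPM with clozapine, 4.20 and 3.69 CPM with risperidone and 5.22 and 14.6 CPM with vehicle (-1.62 ± 0.84 and -1.32 ± 0.83, adjusted p = 1.0 for both), while the homeostatic markers summed to 310.5 and 128 CPM, 178 and 341 CPM and 124 and 927 CPM. The part of these markers was not tested. No member was called for a difference in drug response between microglia and astrocytes or neurons (0.0% of 37310 genes called in each of the 4 tests), with 364 and 1480 genes for clozapine and 484 and 649 for risperidone at an unadjusted p under 0.05 and 0, 0, 0 and 1 by DESeq2. Without the filter on low counts, Itgax was called for clozapine in microglia over neurons (3.14, adjusted p = 0.00601). Of the 31 partners and the 28 further genes none was called for either drug in any fraction.

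Over the 18 libraries the members' profiles fell near different genes, by the root mean square (RMS) of the log2 differences between centred profiles among 19595 named genes. Trem2 and Tyrobp were the closest pair of members (0.42), and Apoe and Axl were next (0.54). Among the genes closest to Trem2 were Hcls1 (0.36) and Ikzf1 (0.37), and closest to Tyrobp were Anxa3 (0.31), Ly86 (0.31) and P2ry12 (0.33). Apoe was closest to Pla2g7 (0.21), Cldn10 (0.22) and the astrocyte glutamate transporter gene Slc1a3 (0.24), and Axl to Lrp4 (0.20), Pbxip1 (0.23) and Lgi4 (0.25). Cd9 lay near Spata13 (0.26), Sun2 (0.27) and Itpkb (0.28), Clec7a near Wdfy4 (0.40), Ccdc88b (0.50) and Myo1f (0.52), and Lpl near Rnf128 (0.41), Tpbg (0.44) and Npnt (0.47). Cst7 was nearest P2rx7 (0.44), Ctsz (0.53) and Slc37a2 (0.56), and Itgax nearest Dusp27 (0.55), Slc5a10 (0.57) and Il1r2 (0.57). Spp1 had the most separate profile of the 10, with Ddias, Ier3 and Depdc7 nearest at 1.00, 1.00 and 1.01. Spp1 and Apoe, both higher in batch 1 microglia, were 2.43 apart over all libraries. These distances rest on libraries that share pools and fractions and are a description.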

How the data were processed

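The authors' deposited counts per gene were made with featureCounts v2.0.8 on GRCm39, per the file headers, in paired-end mode with reads that overlap several genes counted for each, without a strand setting and without the option that counts read pairs, so a count is a read. FastQC is named in the submitters' processing notes; an aligner is not given in either source. Rows were used as deposited, and a combined table of the series was not used. Total counts were 4714468 to 13391163 per library, and replicate libraries differed beyond counting noise (chi-square per degree of freedom 12.47 to 50.64). Pools are of separate animals, and 1 pool gave all 3 fractions.

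Genes were tested with edgeR 4.0.16 in R 4.3.3 (filterByExpr, TMM, quasi-likelihood F test, Benjamini-Hochberg over all genes tested), and SE is the log2 difference over the root of F. Fractions and differences between fractions used 18 libraries, drugs the 6 libraries of a fraction, and batches those 6 with treatment as a term. CPM used TMM factors over 18 libraries, and logged plots a pseudocount of 0.5. The fitting steps were tested on simulated data. Alternatives were RLE scaling, no filter, DESeq2 1.42.0, a replicate block, an adjusted p under 0.10, all 18 libraries, vehicle only and each library left out. The labels give the batch numbers, and libraries of 1 number come from the same animals across fractions; deviations from group means correlated at 0.13 to 0.49 by batch within a fraction and at -0.44 to 0.14 by pool across fractions (9 pairs each). List genes named are the called ones with the largest differences, up to 3 in each direction. The members and lists were chosen with earlier results of these data known, and the batch difference between fractions and the receptor yardstick were added after the data were seen. A few named genes that the rules would list are not reported here.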

Additional observations from a re-analysis of the deposited data

Results flagged for a closer look

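The log2 difference of batch 1 over batch 2 in Spp1 was above 0 in microglia (2.36) and below 0 in astrocytes (-0.63) and neurons (-3.01). The microglia value was above that of astrocytes by 2.99 ± 0.58 (edgeR, 18 libraries, adjusted p = 0.00383). It was above that of the neuron fraction by 5.37 ± 0.68 (adjusted p = 0.000403), where Spp1 had a count of 0 in 1 batch 1 library. Each of these gaps between fractions was tested directly, and both were called in 23 of 23 alternatives. For Itgax the batch difference was above 0 in microglia (0.92) and below 0 in astrocytes (-1.15). The gap of 2.08 ± 0.54 between these values (adjusted p = 0.0228) was called in 18 of 23 alternatives. These tests were chosen after the data had been seen. The alternatives are not independent. The adjusted p under 0.10 uses the same p-values, and some fits leave out a library of the fraction outside the comparison. Leaving out either library of a treatment in a fraction gives nearly the same difference. No group had 4 or more libraries, so single libraries were not screened for standing apart within a group.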

How the results depend on the processing

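No result turned its direction once it was called. The counts of genes and members called that moved by over 1.5 times were these. In the vehicle libraries alone, 714 genes and 2 members (Trem2 and Tyrobp) were called between microglia and astrocytes, 1810 and 4 between microglia and neurons, and 1 and 0 between astrocytes and neurons, beside 4861 and 10, 17558 and 7, and 8856 and 5; these fits hold fewer samples. At an adjusted p under 0.10, 13577 genes were called between astrocytes and neurons, 3122 genes and 1 member between batches in astrocytes, 1764 and 1 in neurons, 2993 genes for the batch difference of microglia minus astrocytes, and 605 and 2 for microglia minus neurons. The corresponding counts at 0.05 were 1750 and 0, 85 and 0, 1804 and 2, and 238 and 1. Without the low-count filter, 14, 10 and 24 genes were called in microglia (clozapine over vehicle, risperidone over vehicle, clozapine over risperidone), 52, 4 and 38 in astrocytes and 171, 47 and 61 in neurons. The drug differences between fractions then had 16 and 4 genes (clozapine, risperidone) for microglia minus astrocytes, and 173 genes with 1 member and 9 genes for microglia minus neurons. The batches then had 1862 genes and 1 member in neurons, 2832 genes for microglia minus astrocytes and 787 and 2 for microglia minus neurons. DESeq2 called 1 gene for the risperidone difference of microglia minus neurons, 1 each for clozapine over vehicle and over risperidone in microglia, 20 and 7 genes for clozapine and risperidone over vehicle in neurons, 2 members between batches in astrocytes, 1262 genes in neurons, and 553 genes and 2 members for the batch difference of microglia minus neurons. With the replicate block, which pairs libraries by batch or pool, 5 and 2 genes were called for clozapine over vehicle and over risperidone in microglia, 4, 4 and 10 in astrocytes, and 1 each for clozapine and risperidone over vehicle in neurons, and the batch difference of microglia minus astrocytes kept 1 member. Beside these and Lpl between microglia and neurons, the block changed no other call of a member. In 1 fit of all 18 libraries, 1 gene was called for risperidone in neurons, 747 genes and 2 members between batches in microglia, beside 1398 and 6, and 2963 and 1 in neurons. RLE scaling gave 1 member between batches in astrocytes, 205 genes in neurons and 2 members for microglia minus neurons. The cause of these shifts was not tested.

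Leaving out 1 library at a time gave 3422 to 5703 genes and 9 to 10 members between microglia and astrocytes, 14222 to 21436 and 7 to 8 between microglia and neurons, and 3877 to 13426 and 2 to 6 between astrocytes and neurons. Between batches it gave 1003 to 1702 genes and 4 members in microglia, 118 to 5188 and 0 to 4 in astrocytes, and 60 to 4295 and 0 to 3 in neurons. The batch differences had 766 to 3905 genes and 1 to 3 members for microglia minus astrocytes and 125 to 1742 and 1 to 6 for microglia minus neurons. Clozapine over vehicle had 0 to 1 gene in microglia, 0 in astrocytes and 0 to 266 in neurons. Risperidone over vehicle had 0 to 1, 0 to 1 and 0 to 145, and clozapine over risperidone 0 to 4, 0 to 3 and 0 to 58. The drug differences had 0 to 1 gene, and no member was called in any drug comparison. A batch comparison without 1 library rests on the other 2 treatments. With 2 pools per group and no batch term, drug differences of the members had SE of up to 0.86 in microglia. With the batch as a block the largest SE there was 0.42, of Clec7a for clozapine over vehicle. Low counts limit Clec7a, Spp1 and Cst7 outside microglia, and Itgax in neurons.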
